A study of Rattus norvegicus with 24 samples.

Results

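Oxt, Avp, Oxtr and Avpr1a encode the precursors of oxytocin and vasopressin, the oxytocin receptor and the vasopressin 1a receptor. Their probe sets were taken by symbol, as those of a rat expression array whose annotation gives 1 of these 4 symbols alone. The 4 genes themselves were chosen with earlier results of these data known. Each gene had 1 such probe set, and the 4 genes stand among 14217 with a probe set of a single symbol. A filter on low signals was passed by 13081 genes, among them Oxt, Avp and Avpr1a, and not by Oxtr.

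Oxytocin and vasopressin are made by large neurons of the paraventricular and supraoptic nuclei of the hypothalamus, which send axons to the posterior pituitary, and each is cut from a precursor that also holds a neurophysin, its carrier protein. Other oxytocin and vasopressin fibers run to the midbrain, and oxytocin is known for its part in parturition, milk ejection and sexual receptivity, and vasopressin for water balance, the stress response and circadian time. The oxytocin receptor and the vasopressin 1a receptor both signal through Gq and phospholipase C.

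RNA of midbrain of young adult female Long–Evans rats, 50 to 60 days old, was measured on 24 arrays. Gonadally intact rats in proestrus gave 12 arrays, of which 6 have a number for a title (number-named) and 6 run from Intact-1 to Intact-6 (Intact-named). Ovariectomized rats (OVX) gave 6 arrays, and ovariectomized and adrenalectomized rats (OVX/ADX) gave 6, and these rats received 10 µg of estradiol benzoate 44 h before the test, 10 days after surgery. In each of the 4 sets, 3 arrays are labelled paced mated, for females that could leave and return to a male in a divided chamber, and 3 chamber-exposed, for females placed in the chamber without mating. Intact rats received no estradiol, so surgery and priming with estradiol cannot be told apart. The study describes 6 intact rats in behavioral tests, fewer than the 12 intact arrays, and no source says whether the sets hold separate rats, so p-values measure the spread between arrays, which may be technical. According to the methods 1 OVX/ADX rat died in surgery, and how the 6 arrays of that set relate to it is not stated. Arrays 2541 and 2530 of the set have titles within the number range of the intact arrays. Precision is limited throughout by the number of arrays.

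The promoters of Oxt and Avp are shown because both genes varied together across the number-named arrays. On the other arrays their relation did not pass the threshold. The genes lie next to each other on chromosome 3 and are read from opposite strands, with 0 annotated genes between them. The sequences are those of RefSeq in the rat build GRCr8, from 250 bases before to 50 bases after each gene's start, at chr3:138235504-138235803 (plus strand) for Oxt and chr3:138248473-138248772 (minus strand) for Avp. Capitals mark TGACC or GGTCA, the core letters of an estrogen receptor site on either strand, CACGTG, an E-box that clock proteins can bind, and CATAAA. No marked stretch overlaps another.
Oxt promoter: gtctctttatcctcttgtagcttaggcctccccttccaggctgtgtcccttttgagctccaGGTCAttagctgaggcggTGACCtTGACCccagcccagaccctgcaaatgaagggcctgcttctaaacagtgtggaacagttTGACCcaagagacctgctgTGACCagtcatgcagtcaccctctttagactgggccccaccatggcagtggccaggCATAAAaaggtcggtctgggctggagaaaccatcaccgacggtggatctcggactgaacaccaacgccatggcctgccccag
Avp promoter: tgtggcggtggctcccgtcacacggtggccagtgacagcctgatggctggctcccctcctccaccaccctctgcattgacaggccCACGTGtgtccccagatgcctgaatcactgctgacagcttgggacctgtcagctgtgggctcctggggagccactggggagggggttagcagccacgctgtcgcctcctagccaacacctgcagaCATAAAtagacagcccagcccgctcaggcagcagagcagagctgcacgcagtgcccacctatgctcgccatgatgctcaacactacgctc
The Oxt promoter holds 5 copies of the TGACC core, which start at −189, −171, −165, −107 and −88 from the gene's start, and those at −171 and −165 lie 1 base apart. Of 33469 promoters of this length, 40.5% hold at least 1 copy on either strand and 0.0926% hold at least 5. The Avp promoter holds 0 copies of it in this window and 1 copy of CACGTG at −165, found in 6.42% of promoters. CATAAA starts at −32 in Oxt and at −40 in Avp and is in 12.7% of promoters, and this motif was chosen after both sequences were read. A match of letters is a description and not a site.

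Signals are given on the log2 scale as deposited. The lowest signals per array were 3.58 to 3.65 on the number-named, 2.296 to 2.393 on the OVX and Intact-named, and 3.38 to 3.43 on the OVX/ADX arrays. From these ranges the signals were taken to come from 3 normalization runs, which no label names. Levels were therefore tested only within a run, and across runs each gene is given by its percentile rank over all 31042 probe sets on that array. Probes differ in brightness, so percentiles of different genes were not compared. The runs also differed in regional markers. These are given as the median percentile of a list's markers on each array. For 9 measured dopamine neuron markers it was 77.4 to 91.9 on the number-named and 73.004 to 87.4 on the OVX/ADX arrays. It was 42.4 to 55.3 on the Intact-named and 46.02 to 70.04 on the OVX arrays. On the latter 2 sets Th, the rate-limiting enzyme of dopamine synthesis, had median percentiles of 33.6 and 36.9. For 7 markers of cortex and hippocampus it was 46.97 to 67.6 on the number-named and 50.1 to 58.7 on the OVX/ADX arrays. On the Intact-named and OVX arrays it was 90.7 to 93.2 and 86.6 to 93.03. For 10 anterior pituitary markers it was 39.8 to 84.1 on the number-named and 35.3 to 74.8 on the OVX/ADX arrays. On the Intact-named and OVX arrays it was 18.3 to 21.9 and 17.6 to 22.5. In bulk tissue, fewer cells of a type and less RNA per cell cannot be told apart.

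Oxt was among the brightest transcripts of the OVX/ADX arrays and of most number-named arrays, and below the middle of the probe sets on all OVX and Intact-named arrays but Intact-1. Among number-named arrays with the paced mated label, Oxt was at 8.76 (array 2543), 12.03 (2538) and 11.84 (2531), which are percentiles of 71.4, 98.3 and 98.1. On those labelled chamber-exposed, it was at 9.40 (2526), 11.39 (2536) and 11.54 (2539), which are percentiles of 80.7, 96.6 and 97.1. Arrays 2543 and 2526, of opposite labels, lay far below the other 4 arrays of the set, and the labels overlapped. On the OVX/ADX arrays, Oxt was at 11.28 (4123), 12.26 (4125) and 12.04 (2541) with the paced mated label and at 12.11 (4124), 11.68 (4126) and 11.89 (2530) with the chamber-exposed label. All 6 arrays lay between percentiles 97.6 and 99.2, with 4123 lowest, and the labels overlapped.

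On the Intact-named arrays labelled paced mated, Oxt was at 8.14, 5.94 and 6.16 (Intact-1, Intact-3 and Intact-5), and on those labelled chamber-exposed at 5.96, 6.08 and 6.13 (Intact-2, Intact-4 and Intact-6). Intact-1, at percentile 63.8, stood above the other 5 arrays, which lay between percentiles 33.5 and 36.8. On the OVX arrays, Oxt was at 5.99, 6.01 and 6.41 (OVX-1, OVX-3 and OVX-5) with the paced mated label and at 6.26, 6.43 and 5.68 (OVX-2, OVX-4 and OVX-6) with the chamber-exposed label. These were percentiles of 29.1 to 40.1, and the labels overlapped. In order of the median percentile, Oxt stood at 98.9 on the OVX/ADX, 96.8 on the number-named, 35.8 on the OVX and 35.6 on the Intact-named arrays. The OVX/ADX and number-named sets overlapped with each other, as did the OVX and Intact-named sets, and no array of one pair reached the other.

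Avp stood in the same order of sets, with median percentiles of 99.2 on the OVX/ADX, 97.0 on the number-named, 45.1 on the OVX and 43.3 on the Intact-named arrays. Number-named arrays with the paced mated label had Avp at 9.49, 12.20 and 11.87 (2543, 2538 and 2531), and those labelled chamber-exposed at 9.93, 11.42 and 11.60 (2526, 2536 and 2539). Arrays 2543 and 2526 were again the lowest, at percentiles 81.6 and 87.0 against 96.7 to 98.5 on the other 4. The OVX/ADX arrays had Avp at 11.14, 12.30 and 12.10 (4123, 4125 and 2541) with the paced mated label and at 12.31, 12.26 and 11.73 (4124, 4126 and 2530) with the chamber-exposed label. Array 4123 was lowest here as for Oxt, at percentile 97.2, and the labels overlapped.

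The Intact-named arrays had Avp at 9.84, 6.50 and 6.40 (Intact-1, Intact-3 and Intact-5) with the paced mated label and at 6.75, 6.73 and 6.52 (Intact-2, Intact-4 and Intact-6) with the chamber-exposed label. Intact-1 stood at percentile 85.4, above array 2543 of the number-named set, and the other 5 arrays lay between 40.3 and 44.9. The OVX arrays had Avp at 6.39, 6.78 and 6.84 (OVX-1, OVX-3 and OVX-5) and at 6.93, 6.73 and 6.63 (OVX-2, OVX-4 and OVX-6) with the same order of labels. They lay between percentiles 39.4 and 47.7, with neither label apart from the other.

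**Figure D1:**
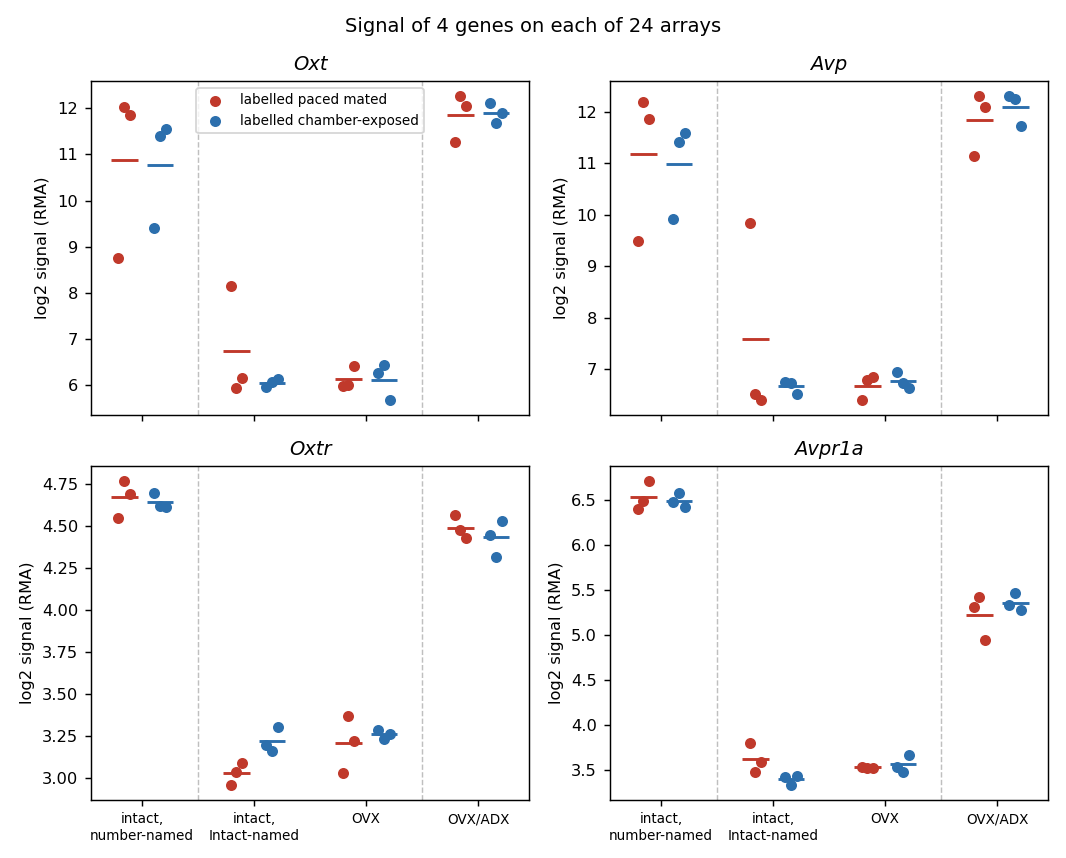
Log2 signal of Oxt, Avp, Oxtr and Avpr1a on each of the 24 arrays (vertical axes, which differ in range), by set (horizontal axis) and mating label (red, labelled paced mated; blue, labelled chamber-exposed). Points are arrays, short lines are means of 3 arrays, and dashed lines separate the 3 normalization runs, between which levels were not tested. For Oxt and Avp, arrays 2543 and 2526 lie low in the number-named set and Intact-1 lies high in the Intact-named set.

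Oxtr gave a low signal in every set. It was at 4.55, 4.77 and 4.69 on number-named arrays with the paced mated label and at 4.70, 4.62 and 4.61 on those labelled chamber-exposed, at percentiles of 6.69 to 9.78. The OVX/ADX arrays had it at 4.56, 4.48 and 4.43 and at 4.45, 4.31 and 4.53, in the same order of labels, at percentiles of 7.97 to 11.3. The labels overlapped in both sets. On the OVX arrays, Oxtr was at 3.03, 3.37 and 3.22 with the paced mated label and at 3.29, 3.23 and 3.26 with the chamber-exposed label, with overlap. Intact-named arrays labelled paced mated had Oxtr at 2.96, 3.04 and 3.09. Those labelled chamber-exposed had it at 3.19, 3.16 and 3.30, and percentiles were 1.57 to 3.32. Here the labels did not overlap (exact permutation p = 0.1, the smallest that 3 arrays against 3 allow). The share of all genes without overlap is not given, so this is not read as a result. In order of the median percentile, Oxtr stood at 10.23 on the OVX/ADX, 7.93 on the number-named, 2.94 on the OVX and 2.35 on the Intact-named arrays, and neighbours overlapped within the first pair and within the second.

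Avpr1a was below the middle of the probe sets on the number-named arrays and near the floor on the OVX and Intact-named arrays. The number-named arrays had it at 6.39, 6.48 and 6.71 with the paced mated label and at 6.48, 6.58 and 6.42 with the chamber-exposed label, at percentiles of 36.5 to 40.6. The OVX/ADX arrays had it at 5.31, 5.42 and 4.95 and at 5.33, 5.47 and 5.27, at percentiles of 19.0 to 28.1, below every number-named array. The labels overlapped in both sets. Array 2543 was the lowest of the number-named set here too, at 6.39 beside 6.42 on 2539, and 2526 was within the range of the rest.

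Intact-named arrays labelled paced mated had Avpr1a at 3.80, 3.49 and 3.60. Those labelled chamber-exposed had it at 3.43, 3.34 and 3.44, and percentiles were 3.91 to 7.85. The labels did not overlap (exact permutation p = 0.1, the smallest that 3 arrays against 3 allow), which is not read as a result either. The OVX arrays had Avpr1a at 3.54, 3.53 and 3.53 and at 3.54, 3.49 and 3.68, with overlap, at percentiles of 4.61 to 6.08. The median percentiles were 37.4 on the number-named, 25.2 on the OVX/ADX, 5.07 on the OVX and 4.52 on the Intact-named arrays, and the last 2 sets overlapped. Avpr1a thus passed the filter on low signals through the number-named and OVX/ADX arrays alone. With no filter, its adjusted p from limma was 0.689 between the labels of the Intact-named set and 0.821 for intact against OVX.

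**Figure D2:**
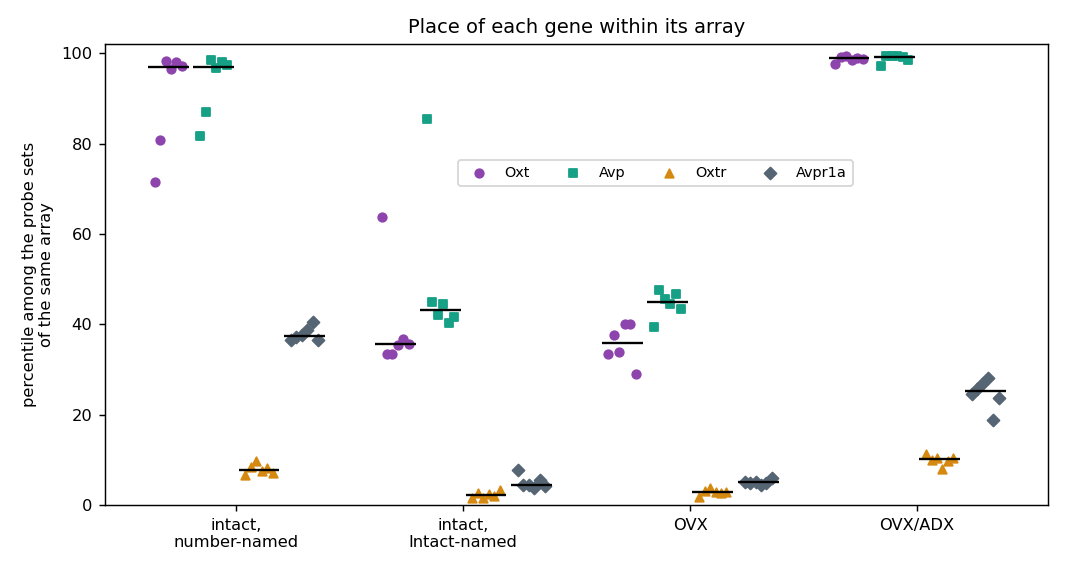
Percentile rank of each of the 4 genes over the 31042 probe sets on that array (vertical axis, percent), by set (horizontal axis). Points are arrays, 6 per gene and set, and lines are medians, and symbols of different genes are not to be read against each other. Oxt and Avp have median percentiles from 96.8 to 99.2 in the number-named and OVX/ADX sets and from 35.6 to 45.1 in the other sets.

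Set against all genes, the gap of Oxt between sets was among the widest on the array. Its median percentile was 98.2 over the 12 number-named and OVX/ADX arrays and 35.6 over the 12 Intact-named and OVX arrays, a difference of 62.6 that was 5th among 14217 genes. For Avp, the medians were 98.3 and 44.5, a difference of 53.8 and 11th. For Avpr1a, the difference of 27.3 was 118th, and for Oxtr, the difference of 6.42 was 2100th. Oxt, Oxtr and Avpr1a had all 12 arrays of the first 2 sets above all 12 of the others, as did 15.9% of all genes, and Avp did not because of Intact-1. These differences follow the normalization runs and the regional markers above, and their part in them was not tested.

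Among 15 measured hypothalamic peptide genes of a fixed list, 9 had higher median percentiles in both the number-named and OVX/ADX sets than in both other sets (34.02% of all genes did) and 3 had lower ones (40.1%). Pmch, the precursor of melanin-concentrating hormone of the lateral hypothalamus, had median percentiles of 99.9 on the number-named and 99.9 on the OVX/ADX arrays, and of 40.1 on the Intact-named and 42.6 on the OVX arrays. For Hcrt, the precursor of the orexins from the same region, the medians were 92.3 and 95.1 against 43.6 and 45.8. Of 5 transcription factors of neuroendocrine neurons, 3 had higher median percentiles in both the number-named and OVX/ADX sets and 2 had lower ones. Sim1, which oxytocin and vasopressin neurons need to form in mouse, had medians of 19.1 and 32.1 against 2.2 and 1.8. Lower were Pou3f2, with 19.8 and 29.2 against 29.6 and 30.5, and Arnt2, with 89.8 and 87.9 against 94.2 and 93.8. The 3 peptide genes with lower median percentiles on the number-named and OVX/ADX arrays than on the others were Sst, Npy and Tac3. For Sst they were 90.9 and 93.8 against 96.0 and 95.04, and for Npy 83.8 and 83.2 against 94.7 and 90.9. For Tac3 they were 56.4 and 58.7 against 65.7 and 61.5.

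The first question of the study was whether paced mating changed transcripts in the midbrain of intact rats. No difference of the 4 genes between mating labels passed the test in either set of intact arrays, in both together, in OVX or OVX/ADX rats, or over all 24 arrays. Differences are signed as labelled paced mated minus labelled chamber-exposed, and by these labels pituitary hormone genes of the number-named set ran opposite to the direction that the study gives for them. Over the whole array, limma called 12 of 27035 probe sets (0.0444%) between the labels of the number-named set, 4 (0.0148%) in the Intact-named set, and 0 (0%) in each of the other 4 mating comparisons. At an unadjusted p under 0.05, those 4 comparisons had 2086 probe sets over both intact sets, 654 in OVX, 667 in OVX/ADX and 1134 over all arrays. A plain per-probe-set test called 0 in the number-named, Intact-named, OVX and OVX/ADX sets.

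Oxt differed by 0.10 in the number-named set (standard error 0.92, 95% interval −2.04 to 2.25, adjusted p = 0.985 from limma), and Avp by 0.21 (standard error 0.73, interval −1.498 to 1.91, adjusted p = 0.952 from limma). These intervals run from a fall to 0.243 times to a rise of 4.75-fold for Oxt. Without arrays 2543 and 2526, a choice made after their values were seen that leaves 2 arrays against 2, Oxt differed by 0.47 (adjusted p = 0.483 from limma) and Avp by 0.53 (adjusted p = 0.571 from limma). Avpr1a differed by 0.04 with all 6 arrays (interval −0.17 to 0.25, adjusted p = 0.914 from limma). Oxtr, which did not pass the filter, differed by 0.03 (interval −0.14 to 0.19).

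In the Intact-named set, Oxt differed by 0.69 (standard error 0.53, interval −0.55 to 1.93, adjusted p = 0.791 from limma) and Avp by 0.91 (standard error 0.84, interval −1.07 to 2.90, adjusted p = 0.829 from limma). Both differences rested on array Intact-1, since without it Oxt differed by −0.01 and Avp by −0.22. The receptors, whose labels did not overlap in this set, had smaller differences, at percentiles of 7.85 or lower. The share of all genes without overlap in this set is not given here, so the lack of overlap is not read as a result. Avpr1a differed by 0.22 (standard error 0.11, interval −0.03 to 0.47, adjusted p = 0.661 from limma) and Oxtr by −0.19 (interval −0.40 to 0.02, adjusted p = 0.689 from limma with no filter). Without Intact-1, Avpr1a differed by 0.14. The exact two-sided permutation test gave p = 0.1 for each receptor, the smallest that 3 arrays against 3 allow, so this test cannot pass a threshold of 0.05 here. Over both intact sets, with the set as a term, Avpr1a differed by 0.13 (interval −0.03 to 0.29, exact permutation p = 0.12) and Oxtr by −0.08 (interval −0.21 to 0.05, exact permutation p = 0.19). Oxt and Avp differed by 0.40 and 0.56 there (exact permutation p = 0.62 and 0.475). Without Intact-1 these became 0.05 and 0.02, and without array 2543 they became 0.90 and 0.98.

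The second question was whether the ovaries and adrenal glands bear on these differences. In OVX rats, Oxt differed by 0.01 between labels (interval −0.48 to 0.50), Avp by −0.09 (interval −0.42 to 0.23), Oxtr by −0.06 (interval −0.29 to 0.18) and Avpr1a by −0.03 (interval −0.22 to 0.15). In OVX/ADX rats, Oxt differed by −0.04 (interval −0.62 to 0.55), Avp by −0.25 (interval −0.98 to 0.48), Oxtr by 0.06 (interval −0.11 to 0.23) and Avpr1a by −0.13 (interval −0.43 to 0.16). In both sets the adjusted p from limma was 1.000 for Oxt, Avp and Avpr1a, and exact permutation p-values for the 4 genes lay between 0.5 and 1. Without arrays 2541 and 2530, which leaves 2 OVX/ADX arrays against 2, Oxt differed by −0.13, Avp by −0.56 and Avpr1a by −0.04 (adjusted p = 0.917, 0.658 and 0.905 from limma). Over all 24 arrays, with the 4 sets as a term, the differences were 0.19 for Oxt (interval −0.48 to 0.86), 0.19 for Avp (interval −0.52 to 0.91), −0.04 for Oxtr (interval −0.13 to 0.05) and 0.02 for Avpr1a (interval −0.09 to 0.14).

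**Figure D3:**
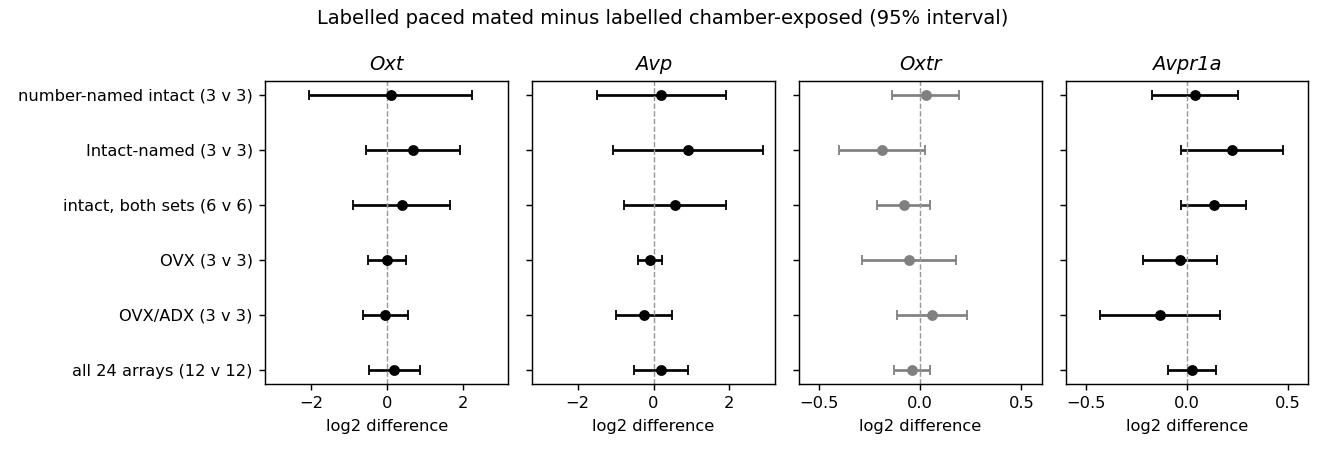
Log2 difference of paced mated against chamber-exposed arrays, by label (horizontal axes, which differ in range) for each gene in 6 comparisons (vertical axis, with the number of arrays per label). Points are differences and bars are 95% intervals from limma, in gray for Oxtr, which did not pass the filter. Every interval spans 0, and those of Oxt and Avp are widest in the intact sets.

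Intact and OVX rats were compared within the run that their arrays appear to share, with the mating label as a term. Titles of the Intact-named and OVX arrays open with different numbers, so gland group and title series cannot be told apart. Oxt differed by 0.27 as intact minus OVX (interval −0.43 to 0.97, adjusted p = 0.659 from limma), Avp by 0.41 (interval −0.65 to 1.46, adjusted p = 0.661 from limma), Oxtr by −0.11 (interval −0.25 to 0.03) and Avpr1a by −0.03 (interval −0.19 to 0.12, adjusted p = 0.812 from limma). None of the 4 genes was called, where 1.44% of probe sets were, 295 higher and 93 lower in intact rats. Without Intact-1, Oxt differed by −0.08 and Avp by −0.15. The count of calls over the array fell from 388 to 0 without OVX-4, to 27 without Intact-2, to 33 without Intact-3, to 88 without OVX-1, to 104 without Intact-1, to 137 without OVX-5 and to 146 without OVX-3.

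The mating difference itself was compared between gland groups with an interaction term. Between the Intact-named and OVX sets, the difference of differences was 0.68 for Oxt (interval −0.72 to 2.08), 1.01 for Avp (interval −1.12 to 3.13), −0.13 for Oxtr (interval −0.42 to 0.15) and 0.26 for Avpr1a (interval −0.02 to 0.53). The adjusted p from limma was 1.000 for Oxt and Avp and 0.994 for Avpr1a, where 0.0074% of probe sets were called. Between the number-named and OVX/ADX sets it was 0.14 for Oxt (interval −2.23 to 2.51), 0.46 for Avp (interval −1.51 to 2.42), −0.03 for Oxtr (interval −0.26 to 0.19) and 0.17 for Avpr1a (interval −0.19 to 0.54), with 0% of probe sets called by limma and 2030 at an unadjusted p under 0.05.

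Of 18 relations between members within a run, that of Oxt with Avp in the number-named run was the one that passed the threshold. In the number-named run, Oxt and Avp had Pearson r = 0.996 over 6 arrays (exact permutation p = 0.00139, adjusted p = 0.025) and Spearman rho = 1 (exact permutation p = 0.00278, adjusted p = 0.05). Arrays 2543 and 2526 stood apart from the other 4, and r over those 4 was 0.989. In the OVX/ADX run, r was 0.814 and rho 0.771 (exact permutation p = 0.0444 and 0.103, adjusted p = 0.251 and 0.535), and without arrays 4123 and 4125 r was 0.087, so the relation rested on these. In the shared run of 12 arrays, r was 0.949 and rho 0.503 (permutation p = 0.0118 and 0.0995, adjusted p = 0.106 and 0.535), and r was 0.434 without Intact-1 and OVX-6. The other 15 relations, between a peptide and a receptor or between the receptors, had adjusted p of 0.251 or more.

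**Figure D4:**
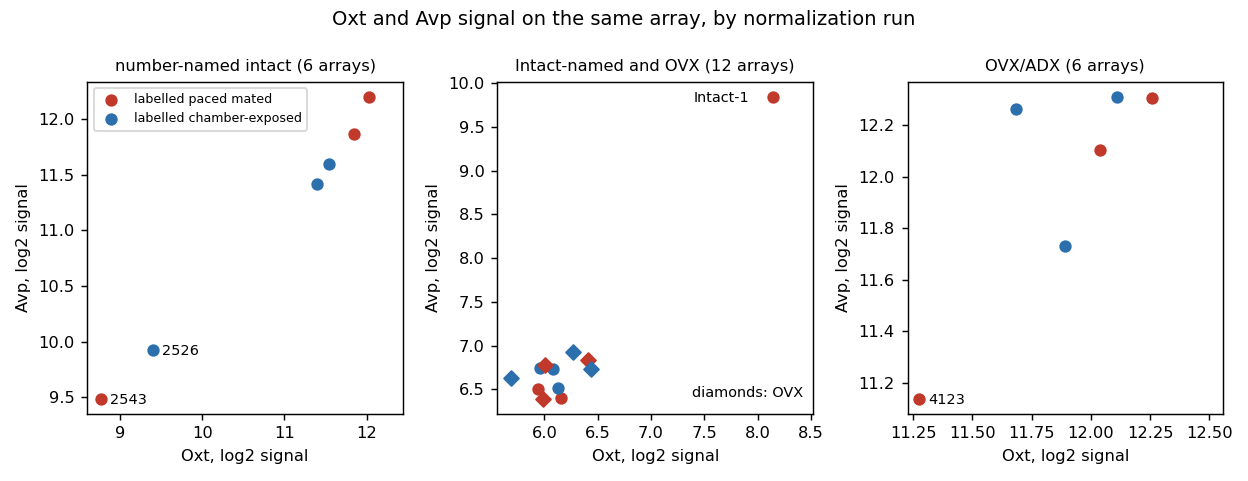
Log2 signal of Avp (vertical axes) against that of Oxt (horizontal axes) on the same array, in each of the 3 normalization runs, colored by mating label (red, labelled paced mated; blue, labelled chamber-exposed), with diamonds for OVX. Axes differ in range between panels. Array titles are given for 2543 and 2526, which lie low in both genes, for Intact-1, which lies high in both, and for 4123, the lowest of its run.

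Over the 24 arrays, with the mean of each run subtracted, the gene most like Oxt among 13080 was Avp, with r = 0.922, and the gene most like Avp was Oxt. These values describe the arrays, and all genes measured on an array share its tissue. Next to Oxt came Atp5mpl (r = 0.752), Atp6v1f (0.741), Timmdc1 (0.729) and Lrrc51 (0.725). Next to Avp came Atp6v1f (r = 0.852), Spa17 (0.831), Ebp (0.831) and Ndufb1 (0.829). Without arrays 2543, 2526 and Intact-1, a choice made after they were seen, Avp was still first for Oxt, with r = 0.717, while the other 4 fell to ranks from 317 to 5079. Over the same 21 arrays, Chga, the precursor chromogranin A of dense-core granules, was second for Oxt (r = 0.670), and Fig4 was first for Avp (r = 0.717) with Oxt second.

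The genes most like Oxtr were Itga9 (r = 0.814), Gas2l3 (0.798), Creb3l3 (0.769), Senp8 (0.738) and Hsd11b2 (0.736). Those most like Avpr1a were Bdh2 (r = 0.756), LOC100912310 (0.746), Isl1 (0.705), Acaa2 (0.691) and Csk (0.659). Isl1 is a transcription factor of several hypothalamic and motor neuron types. Oxt and Avp were not among them, and the signal of Oxtr was near the floor of the array.

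Arrays 2543 and 2526, both low in Oxt and Avp, differed from each other in pituitary and dopamine neuron markers. Against the median of the other 5 arrays of the set, Oxt was shifted by −2.78 and Avp by −2.11 on array 2543, the 4th and the 8th lowest of 13081 genes. On array 2526, the shifts were −2.14 for Oxt and −1.67 for Avp, the lowest and the 2nd lowest, ahead of Elavl1 (−1.16) and Shox2 (−1.03). On 2543, all 10 anterior pituitary markers lay below the median of the other arrays, with a median shift of −1.91 and Gh1, growth hormone, at −6.95, and on 2526 all 10 lay above it, with a median shift of 1.15. Dopamine neuron markers were 9 of 9 below on 2543 (median shift −0.62) and 9 of 9 above on 2526 (0.53). The 7 markers of cortex and hippocampus were all above on 2543 (0.46, with Slc17a7 at 3.05), and 4 of 7 were above on 2526 (0.02). Of 5 thalamus markers, 3 were below and 2 above on 2543 (−0.03), and all 5 were below on 2526 (−0.57).

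Among 15 peptide genes, Trh, the precursor of thyrotropin-releasing hormone of the paraventricular nucleus, was low on both arrays too, with shifts of −1.10 and −0.85. Crh, made by neighbouring neurons of that nucleus, had shifts of −0.04 and −0.63. Pmch had shifts of 0.08 and −0.06 and Hcrt of −0.08 and 0.13. Gal and Pomc, which the anterior pituitary also makes, had shifts of opposite sign on 2543 and 2526, at −0.96 and 1.05 for Gal and −0.97 and 0.95 for Pomc. The part of dissection or of any of these markers in the Oxt and Avp values was not tested.

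Intact-1 stood apart in the other direction, with Oxt higher than the median of the other 5 arrays by 2.06, the 25th highest of 13081 genes, and Avp by 3.33, the 8th highest. The gene with the widest shift was F5 (4.21), followed by Prlr (4.20), Mfrp (4.004) and Sostdc1 (3.71). The 6 measured choroid plexus markers had a median shift of 1.82, with 4 above by more than 1 and 2 below. All 5 thalamus markers were above (median 0.62), as were 8 of 9 dopamine neuron markers (0.49, with Slc6a3 at 2.01). Of 15 peptides, 12 were above and 3 below, with a median shift of 0.24. The 3 above by more than 1 were Trh (1.42), Pmch (1.62) and Gal (1.45). Anterior pituitary markers had a median shift of −0.10, with 3 of 10 above, and every array of this set had them at a mean signal of 4.81 to 4.97. The part of other tissue in the values of Intact-1 was not tested.

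**Figure D5:**
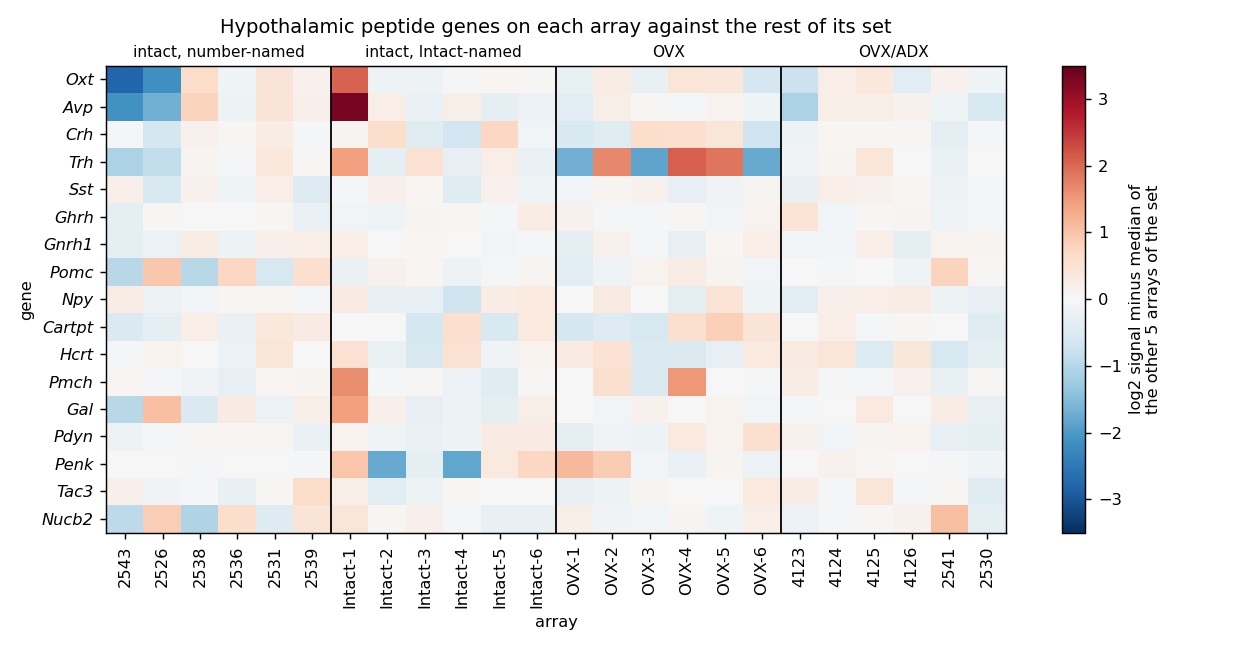
Log2 signal of Oxt, Avp and 15 other hypothalamic peptide genes (rows) on each of the 24 arrays (columns, in 4 sets), as the difference from the median of the other 5 arrays of the set (color scale, log2 units). Blue is lower and red is higher. Oxt and Avp are blue together on 2543 and 2526 and red together on Intact-1, and Trh shares these signs on the same 3 arrays.

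The genes around these peptides were taken from 7 lists of 66 genes, of which 56 passed the filter. None of the 56 passed the test between mating labels in any of the 6 comparisons, or in either interaction, from limma. The median difference in the number-named set was 0.03 for 15 peptides, −0.02 for 8 genes of prohormone processing and secretory granules, 0.01 for 14 genes of Gq signalling and −0.24 for 7 steroid receptor and steroid-responsive genes, beside 0.01 for all 13081 genes tested. In the OVX/ADX set these medians were 0.03, 0.01, 0.00 and 0.08, beside 0.00. Among peptides, Pomc differed by −1.01, Nucb2 by −0.995, Gal by −0.86 and Sst by 0.41 in the number-named set. Among steroid-responsive genes, Greb1, which estrogen receptor turns on, differed by −1.01 and Sgk1, a target of corticosteroids, by −0.78. None of these passed the test. All but Sst shared the sign of the 10 anterior pituitary markers (median difference −2.18), of which Fshb at −2.20 was the one called (adjusted p = 0.00308 from limma). In that set, the part of pituitary tissue in these differences was not tested.

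In the remaining lists, Six6, a transcription factor of the suprachiasmatic nucleus and the pituitary, differed by −1.70 in the number-named and 0.87 in the OVX/ADX set. Chgb, a granule protein, differed by −0.71 and 0.25 in the same sets, and Camk2a, a calcium-dependent kinase, by −0.30 and 0.18. Sim1 differed by 0.15 and −0.13. The other receptors, Avpr1b of pituitary corticotrophs and Avpr2 of the kidney, differed by −0.07 and −0.17 in the number-named set and by 0.07 and −0.04 in the OVX/ADX set. None of these differences passed the test.

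Between intact and OVX rats, 4 of the 56 genes were called by limma, 2 higher and 2 lower, beside 107 higher and 42 lower (1.14%) of all 13081 genes tested. Pdyn, the precursor of dynorphin, a peptide that vasopressin neurons also make, was higher in intact rats by 0.62 (standard error 0.12, adjusted p = 0.0344). Fkbp5, a target of glucocorticoid and progesterone receptors, was higher by 0.62 (standard error 0.13, adjusted p = 0.0437). Vipr2, a receptor of vasoactive intestinal peptide, had a difference of −0.47 (adjusted p = 0.0363) and Itpr2, a channel that releases calcium downstream of Gq, one of −0.29 (adjusted p = 0.0379). All 4 genes were called in a comparison whose count of calls was 0 without OVX-4. Mean signals of 5 thalamus markers were 8.23 to 9.31 on the Intact-named and 8.41 to 10.42 on the OVX arrays, and their part in these calls was not tested.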

How the data were processed

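RNA of 24 arrays of rat midbrain was used. The deposited values are log2 signals, for which the submitters' processing notes name RMA and Affymetrix Expression Console 1.4, while the study's methods name GCRMA, and these values were used as deposited. Of 31099 probe sets, 57 controls were left out of gene values, and probe sets that reached the 20th percentile on at least 3 arrays were tested, which left 27035. A symbol was taken from platform annotation, which can be old, and a gene was represented by its brightest probe set. Groups came from the labels.

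Differences were fitted with limma 3.58.1 in R 4.3.3 (lmFit and eBayes), adjusted over all probe sets by Benjamini-Hochberg with a threshold of 0.05, and each member was also tested by permuting labels within sets (SciPy 1.17.1, Python 3.11.15, two-sided). The fits were tested on simulated data. Named genes are the 4 members, the 5 genes most like each by Pearson r over run-centred arrays, and up to 4 genes a list by the widest mating difference in the number-named or OVX/ADX set, with others that were called, defined a shift or were regional markers named after their values were seen. Members and lists were chosen with earlier results of these data known. Alternatives covered the filter, normalization, eBayes options, a plain test, arrays left out and pairing by title number. Probe sequences and proteins were not used here, and cross-hybridization between Oxt and Avp was not tested.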

Additional observations from a re-analysis of the deposited data

Results flagged for a closer look

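Of 16 groups of 6 arrays (4 genes in 4 sets), 3 had an array whose gap to the nearest other array was a larger share of the group's range than Dixon's 95% critical value, and chance gives this in about 1 group in 20. Oxt on Intact-1 was at 8.14, against 6.16 on the next array, with a gap of 0.899 of the range. Avp on Intact-1 was at 9.84, against 6.75 on the next array, with a gap of 0.898 of the range. Avpr1a on OVX-6 was at 3.68, against 3.54 on the next array, with a gap of 0.719 of the range. The low values of arrays 2543 and 2526 did not pass this test, which looks for a single array.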

How the results depend on the processing

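No difference of Oxt, Avp, Avpr1a or, without the filter, Oxtr passed the threshold under any of 447 refits (lowest adjusted p 0.366, for Oxtr between intact and OVX), and the sign turned in 30 of them, each with 1 array left out, and in 0 of the 159 others. No gene had a second probe set, so that alternative gave no value.

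With 1 array left out, mating differences in the number-named set lay between −0.59 and 1.16 (Oxt), −0.32 and 1.05 (Avp) and −0.051 and 0.11 (Avpr1a), in the Intact-named set between −0.0067 and 1.10 (Oxt) and −0.22 and 1.51 (Avp), in the OVX set between −0.21 and 0.16 (Oxt), −0.18 and 0.045 (Avp) and −0.074 and 0.020 (Avpr1a), in the OVX/ADX set between −0.24 and 0.26 (Oxt), −0.48 and 0.10 (Avp) and −0.23 and 0.0056 (Avpr1a), over both intact sets between 0.054 and 0.90 (Oxt), 0.018 and 0.98 (Avp) and 0.083 and 0.17 (Avpr1a), and over all arrays between 0.019 and 0.42 (Oxt), −0.082 and 0.37 (Avp) and −0.0046 and 0.062 (Avpr1a). Intact minus OVX lay between −0.079 and 0.41 (Oxt), −0.15 and 0.61 (Avp) and −0.087 and 0.0037 (Avpr1a), the interaction with ovariectomy between −0.016 and 1.09 (Oxt) and −0.12 and 1.5997 (Avp), and that with OVX/ADX between −0.55 and 1.20 (Oxt) and −0.069 and 1.31 (Avp). Signs in the Intact-named set, over all arrays and in the comparisons of the shared run turned without Intact-1 (Avpr1a against OVX without OVX-6), those of the number-named set without 2526, 2538 or 2531, those of OVX without OVX-1, OVX-5 or OVX-6, and those of OVX/ADX without 4123, 4124 (Oxt) or 2541 (Avpr1a).

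Calls in the number-named set went from 12 to 5 (filter at the 50th percentile), 2 (quantile normalization), 19 (array medians subtracted), 0 (plain test, 2320 at an unadjusted p under 0.05), 2 (without 2543 and 2526, added after the data were seen) and 2 to 58 with 1 array left out (55 without 2531, 58 without 2539). Those of the Intact-named set went from 4 to 0 (plain test, 1966 unadjusted) and 1 to 15 with 1 array left out (15 without Intact-1). The ranges with 1 array left out were 0 to 1 over both intact sets, 0 to 443 for intact against OVX, 1 to 9 for the interaction with ovariectomy and 0 to 25 for that with OVX/ADX. The causes were not tested.

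Title numbers shared by Intact and OVX arrays gave correlations of deviations between 0.018 and 0.314. Arrays of unlike number were not compared, so these values cannot tell whether the numbers pair the arrays. With the number as a replicate block, 375 probe sets were called in place of 388. The correlation of Oxt with Avp, with 1 array left out, lay between 0.993 and 0.999 (number-named), 0.310 and 0.974 (OVX/ADX) and 0.364 and 0.968 (shared run), and without the 2 farthest arrays was 0.087 and 0.434 in the last 2. Quantile normalization of the 24 arrays moved 8 of 16 set means by more than 1 SD, with Oxtr at 4.19 on the number-named and 3.60 on the Intact-named arrays in place of 4.66 and 3.12. Oxtr signals near the floor limit what a fall could show.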

Other observations

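On the OVX arrays, Trh took high and low values on arrays of both labels, at 6.77, 7.19 and 6.97 on OVX-2, OVX-4 and OVX-5 and at 5.10, 4.93 and 4.997 on OVX-1, OVX-3 and OVX-6, while Oxt on the same 6 arrays lay between 5.68 and 6.43 and Avp between 6.39 and 6.93. On the Intact-named arrays, Trh was at 6.56, 5.66 and 5.36 with the paced mated label and at 5.04, 5.08 and 5.13 with the chamber-exposed label, and the difference of 0.77 had an adjusted p of 0.569 from limma.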
